A study of Homo sapiens with 3 samples.

Results

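The metallothioneins and their zinc-responsive partners were followed in MDA-MB-231, an established basal-like breast cancer cell line of human origin, whose cells carried 1 of 3 forms of the corepressor KAP1. The 7 genes, of 19049 in the deposited table, were picked by symbol, as the rule names them: the metallothionein genes MT2A, MT1E, MT1X, MT1G and MT1F, the zinc sensor MTF1 and the zinc exporter SLC30A1. In all 3 groups the cells' own KAP1 (TRIM28) had been depleted by short hairpin RNA and KAP1 was re-expressed. S473D cells carried KAP1 with aspartate at the serine under study, a charge that imitates phosphorylation. S473A cells carried alanine there, which cannot be phosphorylated, and wt cells carried the wild-type serine. Each form gave 1 library of total RNA. The labels do not say whether the cells were clones or pools. Parental cells and cells with no re-expressed KAP1 were not analysed here. The question was how the transcriptome differs between the 3 forms.

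Metallothioneins are very small, cysteine-rich proteins that bind zinc, copper and cadmium in clusters and so buffer free metal. When free zinc rises, the transcription factor MTF1 binds metal response elements in the promoters of metallothionein genes and of SLC30A1 and raises their transcription, which makes these transcripts a sensitive readout of zinc inside the cell. Metallothionein genes also respond to glucocorticoids and oxidative stress, and human cells usually use MT2A as the main form, with the MT1 genes as close copies beside it. In RefSeq (GRCh38.p14), 16 MT1 to MT4 genes and pseudogenes lie on chromosome 16, with MT2A near one end of the row, MT1L and MT1E next to it, MT1F and MT1G as neighbours further on, and MT1X last. MTF1 and SLC30A1 lie on chromosome 1.

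RefSeq promoters (GRCh38.p14) were found for 4 of the 7 genes, MT2A, MT1X, SLC30A1 and MTF1. The 250 bases before the start are shown for MT2A and MT1X, 2 abundant metallothioneins whose levels differed between libraries in unlike ways, for SLC30A1, a target of MTF1 outside the metallothionein family, and for MT1H, a family member with almost no reads. Capitals mark the core of the metal response element, searched as TGCACNC or TGCGCNC on both strands, with no match overlapping another.
MT2A, chr16:56608334-56608583, plus strand: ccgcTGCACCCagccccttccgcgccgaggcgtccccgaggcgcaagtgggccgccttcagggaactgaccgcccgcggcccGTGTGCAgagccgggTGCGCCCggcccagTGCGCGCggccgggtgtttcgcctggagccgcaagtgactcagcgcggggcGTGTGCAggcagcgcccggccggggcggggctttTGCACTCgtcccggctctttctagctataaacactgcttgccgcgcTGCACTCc
MT1X, chr16:56682220-56682469, plus strand: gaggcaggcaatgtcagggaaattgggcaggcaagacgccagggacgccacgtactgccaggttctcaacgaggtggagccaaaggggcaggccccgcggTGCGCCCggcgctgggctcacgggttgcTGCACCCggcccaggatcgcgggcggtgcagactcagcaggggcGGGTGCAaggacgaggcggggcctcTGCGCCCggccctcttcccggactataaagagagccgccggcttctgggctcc
SLC30A1, chr1:211579162-211579411, minus strand: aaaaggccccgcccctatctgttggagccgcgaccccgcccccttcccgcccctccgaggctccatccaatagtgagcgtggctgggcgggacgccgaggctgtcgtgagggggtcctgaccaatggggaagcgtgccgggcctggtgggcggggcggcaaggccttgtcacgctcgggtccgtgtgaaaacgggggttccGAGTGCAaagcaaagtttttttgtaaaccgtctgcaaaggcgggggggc
MT1H, chr16:56669564-56669813, plus strand: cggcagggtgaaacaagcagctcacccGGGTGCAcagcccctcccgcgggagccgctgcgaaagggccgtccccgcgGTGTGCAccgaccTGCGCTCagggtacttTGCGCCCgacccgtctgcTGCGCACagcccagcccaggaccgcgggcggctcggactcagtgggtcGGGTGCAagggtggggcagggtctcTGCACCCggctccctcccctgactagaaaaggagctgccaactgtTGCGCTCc
The MT2A window held 7 cores, 5 forward and 2 reverse. The MT1X window held 4, the SLC30A1 window 1 and the MTF1 window 0. Of 35116 RefSeq promoters, 24.8% held at least 1 core in these 250 bases, 0.370% at least 4 and 0.0313% at least 7. The MT1H window held 8, although MT1H had an estimated 0 reads in S473D, 2 in S473A and 2 in wt. The letters TATAAA, searched on the forward strand, stood in the MT2A and MT1X windows and in 6.80% of all promoters. They were absent from the MT1H, SLC30A1 and MTF1 windows. MT1B, a family member whose window is not shown, also held TATAAA, with 3 cores. Its estimated reads were 1 in S473D, 0 in S473A and 1 in wt. A match describes the letters alone.

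The deposited values are log2 of RPKM, read numbers divided by gene model length and by library depth, with 0.1 added, and levels are given here as RPKM with the 0.1 taken off. Because each group has 1 library, neither a replicate error nor a test can be given, and a difference describes those libraries alone. Depth, estimated from the steps between low values, was 24000000 reads for S473D, 29500000 for S473A and 25800000 for wt. TRIM28 stood at 25.6 RPKM in S473D, 32.3 in S473A and 28.7 in wt, and the values do not separate the cells' own transcript from the re-expressed one. The line's markers VIM, CD44, MSN, CAV1 and KRT18 lay between 99.9 and 740 RPKM over the libraries, whereas leukocyte, endothelial and liver markers did not exceed 0.132 RPKM. The hormone receptor genes ESR1 and PGR and the epithelial genes CDH1 and EPCAM did not exceed 0.339 RPKM. Among luminal genes, GATA3 and FOXA1 did not exceed 1.96 RPKM, and KRT19 was at 21.5 RPKM in S473D, 9.45 in S473A and 11.1 in wt.

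MT2A was by far the most abundant of the 7 genes. It stood at 946 RPKM in S473D, 913 in S473A and 886 in wt, and its mean ranked 30 among all 19049 genes. MT1E, a metallothionein that shares the MT2A end of the cluster, stood at 152 RPKM in S473D, 75.9 in S473A and 83.9 in wt. MT1X, at the far end, stood at 109 RPKM in S473D, 68.2 in S473A and 75.9 in wt. MT2A was therefore nearly level across the libraries, while MT1E and MT1X were both highest in S473D and lowest in S473A.

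The zinc exporter gene SLC30A1 was at 6.05 RPKM in S473D, 6.50 in S473A and 6.20 in wt. MTF1, which encodes the sensor, was at 2.32 RPKM in S473D, 3.21 in S473A and 3.21 in wt. MTF1 was thus lowest in S473D and level between the other two, and SLC30A1 hardly varied. MT1G, a metallothionein gene, was at 0.522 RPKM in S473D, 0.766 in S473A and 0.458 in wt, which amounts to about 5, 9 and 5 reads in S473D, S473A and wt. MT1F, its neighbour in the cluster, was listed at 0 in S473D, at 0.0782 RPKM in S473A (about 2 reads) and at 0 in wt. These 2 genes were at the edge of detection, and no order of the libraries can be read from them.

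**Figure D1:**
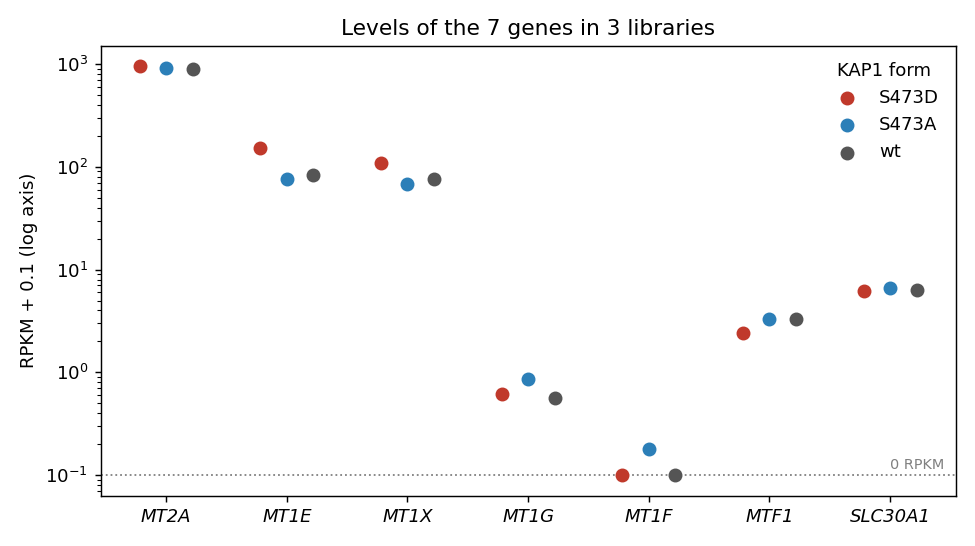
RPKM + 0.1 on a log axis for the 7 genes, 1 point per library, with the 3 forms of KAP1 side by side; the dotted line marks 0 RPKM. MT2A sits between 886 and 946 RPKM, MT1E and MT1X are highest in S473D, and MT1F lies on the line in S473D and wt.

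Ordered by mean level per length, the genes ran MT2A, MT1E, MT1X, SLC30A1, MTF1, MT1G and MT1F. Among neighbours in that order only MT1E and MT1X had ranges that overlapped over the libraries, and MT1E was the higher of the pair in each library. The 13 metallothionein genes in the table summed to 1212 RPKM in S473D, 1061 in S473A and 1050 in wt. That sum was 0.308% of all RPKM in S473D, 0.321% in S473A and 0.317% in wt, since the total of all RPKM was itself larger in S473D (393381, against 330916 in S473A and 330667 in wt). Within the family MT2A made up 78.1% in S473D, 86.1% in S473A and 84.5% in wt, and MT1E 12.6% in S473D, 7.16% in S473A and 7.995% in wt. There were 6.21 RPKM of MT2A for each RPKM of MT1E in S473D, 12.03 in S473A and 10.6 in wt.

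In S473D against wt, MT1E was 1.82-fold higher and MT1X 1.43-fold higher, while MT2A, the main form, was 1.07-fold higher. Exact 95% intervals for the ratio of RPKM, which cover counting error at the estimated depths only, ran from 1.70 to 1.93 for MT1E and from 1.31 to 1.56 for MT1X. For MT2A it ran from 1.05 to 1.09. MTF1 stood at 0.722 times its wt level (0.638 to 0.815), and SLC30A1 at 0.975 times (0.885 to 1.07), an interval that includes 1. The interval of MT1G, 0.247 to 4.67, shows how little its few reads can tell. In bulk RNA, more transcript per cell and more cells carrying it cannot be told apart.

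Differences were counted on the log2(RPKM + 1) scale among the 11579 genes whose mean reached 1 RPKM, which 5 of the 7 genes reached; this scale understates differences of low genes. None of the 5 was 2-fold apart between S473D and wt, where 1.09% of the tested genes were. The differences were 0.85 for MT1E, 0.51 for MT1X, 0.09 for MT2A, -0.03 for SLC30A1 and -0.34 for MTF1, beside a median of -0.10 over all tested genes. Centring on that median turned SLC30A1 to 0.07 and left the signs of the other 4 as they were. Only 2.26% of tested genes had a larger difference than MT1E, against 8.91% for MT1X, 30.7% for MT2A, 42.6% for SLC30A1 and 79.4% for MTF1.

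Transcript length moved with these differences across the whole S473D library. Tested genes with a GENCODE transcript under 600 nt, 107 in all, had a median of 0.51 for S473D minus wt. MT1X, at 450 nt, was the middle gene of that class. Genes of 600 to under 1000 nt had a median of 0.44, and in that class MT1E (729 nt, difference 0.85) lay above the median and MT2A (786 nt, difference 0.09) below it. Among genes with transcripts under 1 kb, 18.3% had a larger difference than MT1E, 46.6% than MT1X and 75.7% than MT2A, and 9.60% were 2-fold apart. Genes of 4000 nt or more had a median of -0.23, with MTF1 (7972 nt) below it at -0.34 and SLC30A1 (5474 nt) above it at -0.03.

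With smooth trends on length and GC content removed from all genes, the S473D minus wt difference was 0.31 for MT1E, -0.19 for MT1X, -0.36 for MT2A, -0.08 for SLC30A1 and -0.15 for MTF1, beside a median of -0.10 over genes so treated. The difference of MT1E thus stayed above 0, whereas those of MT1X and MT2A turned to below 0. Such a value places a gene beside genes of like length and GC content. The RPKM of MT1X and MT2A themselves were higher in S473D than in wt. The spread between MT1E and MT2A was present before and after the trends were removed. Their transcripts are of similar length but differ in GC content, at 53.5% for MT1E and 63.0% for MT2A. The GENCODE lengths may not be those used by the authors, and several metallothionein genes have shorter annotated transcripts as well.

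**Figure D2:**
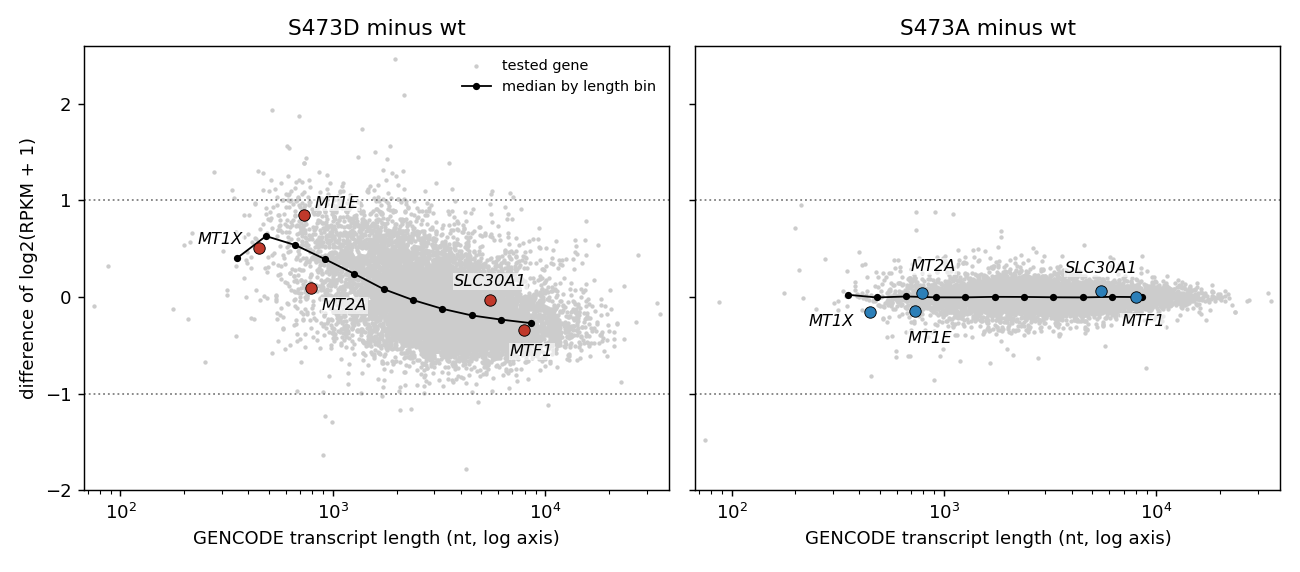
Difference of log2(RPKM + 1) for S473D minus wt (left) and S473A minus wt (right) against GENCODE transcript length on a log axis; grey points are tested genes, the black line joins medians of length bins, dotted lines mark 2-fold. In S473D short transcripts lie above 0 and long ones below, with MT1X just under the line, MT1E above and MT2A farther below it; in S473A the line stays at 0.

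S473A cells differed little from wt cells in these genes. MT1E stood at 0.905 times its wt level (0.844 to 0.970) and MT1X at 0.899 times (0.818 to 0.987), log2 differences of -0.14 and -0.15. MT2A was at 1.03 times (1.01 to 1.05), SLC30A1 at 1.05 times (0.958 to 1.15) and MTF1 at 0.998 times (0.898 to 1.11). None of the 5 was 2-fold apart, where 0.0173% of tested genes were (0.181% of those with transcripts under 1 kb). The median of the class under 1 kb was 0.00, as for all tested genes, and 90.6% of that class had a larger difference than MT1E and 91.3% than MT1X. MT1E and MT1X therefore stood toward the low end of a narrow distribution in S473A. The intervals cover counting error only, and how far such differences would vary between cultures is not known.

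Between S473D and S473A, MT1E and MT1X were farther apart than in the comparisons with wt, for MT1X only before the length and GC trends were removed. MT1E was 2.01-fold higher in S473D (1.89 to 2.13), a log2(RPKM + 1) difference of 0.995 that falls just short of 2-fold on that scale. It was past 2-fold, at 1.004 on the log2(RPKM + 0.1) scale, 1.10 after centring on the median and 1.11 after scaling the libraries by a trimmed mean of log ratios, and it was 0.43 with the length and GC trends removed. MT1X was 1.59-fold higher in S473D (1.46 to 1.74, difference 0.66, or -0.07 with the trends removed). The median over all genes with the trends removed was -0.10. MT2A was at 1.04 times (1.02 to 1.06, difference 0.05, or -0.40 with the trends removed). MTF1 was at 0.723 times (0.642 to 0.814, difference -0.34, or -0.15 with the trends removed). SLC30A1 was at 0.930 times (0.847 to 1.02, difference -0.09, or -0.15 with the trends removed). None of the 5 tested genes was past 2-fold on the log2(RPKM + 1) scale, where 1.13% of tested genes were (9.24% of those with transcripts under 1 kb). This comparison shares each of its libraries with one of the others.

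**Figure D3:**
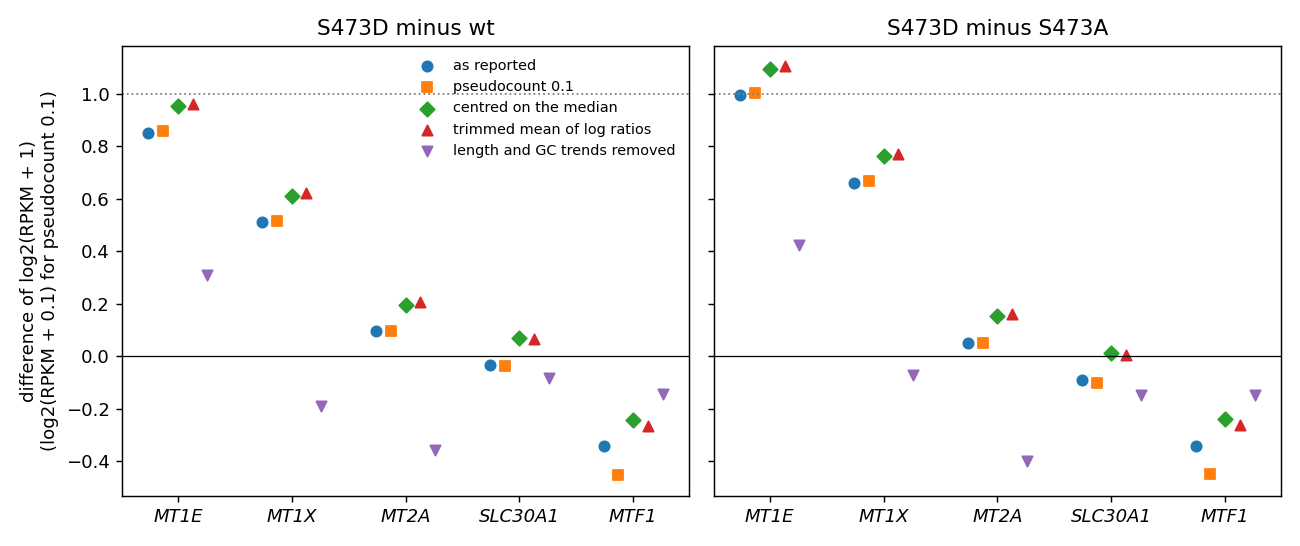
Differences of the 5 tested genes for S473D minus wt (left) and S473D minus S473A (right) under 5 ways of processing, on the log2(RPKM + 1) scale except for the pseudocount of 0.1; the dotted line marks 2-fold. MT1E is above 0 under each, while MT1X and MT2A lie above 0 as reported and below 0 with the length and GC trends removed.

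The metallothionein copies resemble each other in sequence, so reads can be shared out among them. Of the 50-base windows of the MT1X transcript, 45.1% also occurred in GENCODE transcripts of other genes. AC026461.1 was listed first among these, followed by MT1G and the pseudogene MT1XP1. The share was 20.2% for MT1G, 10.6% for MT1E, 4.88% for MT2A, 3.59% for MT1F, 0.644% for MTF1 and 0.00% for SLC30A1. With 36-base windows it was 47.5% for MT1X, 18.9% for MT1E and 10.4% for MT2A. The labels give neither the read length nor the rule for reads with several matches, so values of the MT1 genes are uncertain to that extent. The largest share of a single other gene in MT1E windows fell to MT1G at 50 bases and MT1M at 36 bases. MT1M was listed at under 0.001 RPKM in every library, but that value itself depends on the unknown rule. It therefore does not show how many reads MT1E and MT1M share.

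Of 11 other metallothionein genes and pseudogenes looked up, 8 were in the table and 1, MT1HL1 on chromosome 1, had a mean of at least 1 RPKM. MT1HL1 was at 2.51 RPKM in S473D, 2.04 in S473A and 2.33 in wt, about 19 reads in each library. The transcribed pseudogene MT1L, which lies between MT2A and MT1E, was at 1.21 RPKM in S473D, 0.246 in S473A and 0.281 in wt, about 12, 3 and 3 reads in S473D, S473A and wt. Its ratio between S473D and wt was 4.30 with a counting interval of 1.16 to 23.7. MT1L was thus, like its neighbour MT1E, highest in S473D, on very few reads; it was singled out after its values were seen. Of its 36-base windows 10.6% also occurred in transcripts of other genes, MT1E among them. MT1A, MT1B, MT1H, MT1IP, MT1JP and MT1M did not exceed 0.202 RPKM in any library.

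The tested zinc transporter genes were less than 2-fold apart between S473D and wt, as were all but 1.09% of all tested genes. Of 9 further SLC30A genes, most but not all of which move zinc out of the cytosol, 4 were tested. Of these 4, 0 were 2-fold apart from wt in S473D. SLC30A9, a zinc transporter of mitochondria, was highest at 22.1 RPKM in S473D, 15.4 in S473A and 16.2 in wt, a difference of 0.43 between S473D and wt and -0.06 between S473A and wt. With the length and GC trends removed SLC30A9 stood at 0.41 for S473D minus wt, above MT1E at 0.31. SLC30A5, which loads zinc into the secretory pathway, followed at 0.15 for S473D minus wt, and SLC30A7 and SLC30A6 stood at -0.01 and -0.04. The median of the 4 was 0.07, against -0.10 for all tested genes. With the length and GC trends removed it was 0.00, beside -0.10 over all genes so treated.

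Of 14 SLC39A genes, which bring zinc into the cytosol, 11 were tested. Between S473D and wt 0 of the 11 were 2-fold apart, beside 1.09% of all tested genes. In S473D 4 were higher and 7 lower (39.3% of all tested genes were higher). Their median was -0.03, or 0.07 after centring on the median of all genes. SLC39A8, a zinc and manganese importer, was at 21.8 RPKM in S473D, 17.3 in S473A and 17.7 in wt (0.29 for S473D minus wt), and SLC39A3 at 0.12. SLC39A7, which releases zinc from the endoplasmic reticulum, was at 75.5 RPKM in S473D, 93.1 in S473A and 91.9 in wt (-0.28 for S473D minus wt), and SLC39A13 at -0.22. In S473A against wt the 11 differences ran from -0.08 to 0.16.

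Most copper-handling genes, listed as a second metal group, were higher in S473D than in wt before the trends on length were removed. Of 11 tested, 9 were higher and 2 lower in S473D than in wt, where 39.3% of all tested genes were higher. Their median was 0.40, against -0.10 for all tested genes. With the length and GC trends removed it was -0.01, beside -0.10 over all genes so treated. COX17, a copper chaperone of mitochondria, was the 1 gene past 2-fold, at 74.0 RPKM in S473D, 38.6 in S473A and 35.6 in wt (1.04, or 0.26 with the trends removed, at 684 nt). Past 2-fold were 1.09% of all tested genes and 9.60% of those with transcripts under 1 kb. ATOX1, the chaperone that hands copper to the ATP7 pumps, followed at 0.66 (0.05 with the trends removed, 488 nt). The copper importer SLC31A1 was lowest, at 7.25 RPKM in S473D, 10.7 in S473A and 10.6 in wt (-0.49, or -0.46 with the trends removed, 4744 nt), and the copper pump ATP7B stood at -0.29 (-0.01 with the trends removed).

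**Figure D4:**
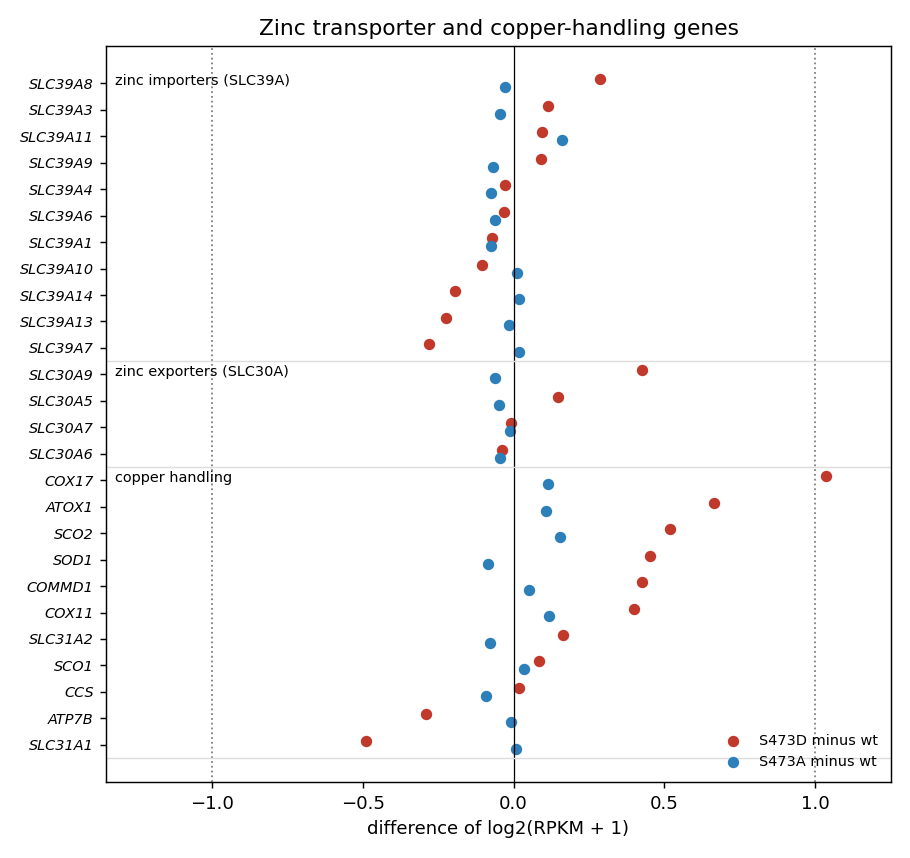
Difference of log2(RPKM + 1) from wt for tested zinc importers, zinc exporters and copper-handling genes, red for S473D and blue for S473A; dotted lines mark 2-fold. The zinc transporters lie between -0.28 and 0.43 in S473D, and COX17 is the 1 gene past 2-fold.

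Other inducers of metallothionein genes were looked at through their usual targets. Of 12 genes of the metal, oxidant and heat shock response, 2 were higher and 10 lower in S473D than in wt, where 39.3% of all tested genes were higher, with a median of -0.09 against -0.10 for all tested genes, or 0.01 after centring. HSPA1A, an inducible chaperone gene with a near-identical copy in HSPA1B, was at 10.5 RPKM in S473D, 9.98 in S473A and 7.40 in wt (0.45 for S473D minus wt). HSPA1B itself was at 107.6 RPKM in S473D, 126.9 in S473A and 114.8 in wt (-0.09 for S473D minus wt), and reads can be split between the copies. TXNRD1, a thioredoxin reductase gene, stood at 0.06, the oxidant-response gene SRXN1 at -0.25 and the chaperone gene DNAJB1 at -0.24. Of 9 tested genes of the glucocorticoid response, 3 were higher and 6 lower, beside the same 39.3%, with a median of -0.02, or 0.08 after centring. CEBPD stood at 0.27, SGK1 at 0.26, the glucocorticoid receptor gene NR3C1 at -0.28 and ERRFI1 at -0.65. None of these genes was 2-fold apart between S473D and wt, where 1.09% of all tested genes were.

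The genes whose pair of differences from wt lay nearest to that of MT2A, over the 3 libraries, were WDR45, FAM98C, METTL6, SLC7A6OS and ALYREF, at distances of 0.00478 to 0.00749 on the log2(RPKM + 1) scale. Nearest to SLC30A1 were TBC1D20, GCC1, ABHD17C, TANC2 and NUDT9, at distances of 0.00533 to 0.00734. Of 8124 genes searched, 238 lay within 0.05 of MT2A and 242 within 0.05 of SLC30A1, so that nearness over 3 libraries picks out little.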

How the data were processed

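Total RNA of 3 libraries, 1 per form of KAP1, was sequenced, grouped by the titles of the samples. Bowtie, Partek and genome build hg19 are named in the submitters' processing notes; versions, annotation, counting rule and read length were not given in the sources used here. Values were deposited by the authors as log2 of RPKM, per the file name, and the lowest value, -3.32, is the log2 of 0.1, so 0.1 was subtracted from the antilog to give RPKM. Of 19076 lines, 27 with repeated symbols or symbols turned into dates were left out. Genes whose mean reached 1 RPKM were kept, without 169 short RNAs. Differences were taken on log2(RPKM + 1) and counted at 2-fold, since 1 library per group allows no test. Relative depth came from the commonest ratio between 2170 low genes (1 read in S473D worth 1.07 times, and in S473A 0.875 times, one in wt). Absolute depth and read numbers came from GENCODE release 29 transcript lengths, 1 transcript per gene (the longest with a RefSeq record, otherwise the longest), which 10787 genes (93.2%) had. Depths are therefore estimates, and exact 95% intervals (conditional binomial, scipy 1.17.1) cover counting error only. Trends on length and GC content were removed by lowess (statsmodels 0.14.6, fraction 0.2, 2 rounds), keeping the overall median. The 2-fold count, the removal of a length trend and the scaling were run on simulated data, with changed genes of 1 kb or more only. The depth estimate, the intervals and the removal of a GC trend were not tested in this way. The members and the 6 gene lists were chosen with earlier results of these data known, and the TATAAA search and window sizes were added after the data were seen. Genes were named by rule: all members, other metallothioneins of at least 1 RPKM, up to 2 highest and 2 lowest of each other list in S473D minus wt, and the 5 genes of at least 5 RPKM nearest to MT2A and to SLC30A1; the levels of other family members were added. Alternatives were a pseudocount of 0.1 or 0.5, a minimum mean of 5 RPKM or none, centring on the median, scaling by a trimmed mean of log ratios, removal of the trends, short RNAs kept, and a background of transcripts under 1 kb.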

Additional observations from a re-analysis of the deposited data

How the results depend on the processing

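No paired analysis was possible because each group has 1 library. Filters on low values and short RNAs only decide which genes are counted, so they cannot change a member's value. With centring or scaling 2 of 21 member differences changed sign. With the length and GC trends removed 4 of 15 changed sign, and MT1F and MT1G had no value. The number of genes 2-fold apart between S473D and wt (126) was 205 with a pseudocount of 0.1, 205 with centring, 217 with scaling and 54 with the trends removed (21 higher and 33 lower, against 115 higher and 11 lower as reported). Between S473D and S473A (131) it was 218, 219, 226 and 65 under the same steps in that order. Between S473A and wt (2) it was 14 and 7 with pseudocounts of 0.1 and 0.5, 0 above a mean of 5 RPKM, 1 with the trends removed and 19 with short RNAs kept. Of the members, 0 became 1, namely MT1E in S473D against S473A, with a pseudocount of 0.1, with centring and with scaling. Of the genes in the lists, COX17 was past 2-fold between S473D and wt in all settings but removal of the trends, which left 0, and 1, also COX17, was past it between S473D and S473A with centring or scaling. With transcripts under 1 kb as background, the share 2-fold apart was 9.60% for S473D against wt, 0.181% for S473A against wt and 9.24% for S473D against S473A. Scaling moved genes in S473D by 0.11 on log2(RPKM), and low genes by less on log2(RPKM + 1). MTF1, for example, went from -0.34 to -0.27 for S473D minus wt. Depth limits MT1F, MT1G and MT1L, which rest on 12 reads or fewer in each library.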
